A study of Mus musculus with 30 samples.

Results

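In F1 mice bred from the inbred strains CC019/TauUnc and CC037/TauUnc, 47 autosomal genes drew most of their liver RNA from the allele of 1 parental strain. A gene was included when it met 3 conditions. At least 90% of its allelic counts lay on the mouse's own allele in each of 15 inbreds, its total averaged at least 1 CPM (counts scaled to the total of the mouse) over 14 F1s, and its mean CC019 and CC037 allele levels in these F1s, each with 0.05 CPM added, differed at least 4-fold in either direction (an absolute log2 ratio of at least 2). Of 42880 genes, 41077 were autosomal, 3952 of these passed the own-allele and level conditions, and 47 of the 3952 also passed the ratio. The CC019 allele was dominant at 24 members and the CC037 allele at 23. The members were chosen by these own-allele shares, F1 totals and F1 allelic ratios, so these values are described and carry no test. A gene with 0 allelic counts in any inbred failed the own-allele condition, so inbred totals entered the choice to that extent. The strain difference of the inbreds and the contrasts between cross directions and between sexes did not choose the members, and those were tested.

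Polyadenylated RNA from the frozen median liver lobe of 30 mice aged 4 months was sequenced with a strand-specific kit. CC019 and CC037 are strains of the Collaborative Cross, a panel of recombinant inbred mice, and the strain of the mother is written first in a cross. There were 6 CC019 inbreds (3 males and 3 females), 9 CC037 inbreds (4 males and 5 females), 7 CC019 x CC037 F1s (3 males and 4 females) and 8 CC037 x CC019 F1s (3 males and 5 females), each a separate animal. A CC019 x CC037 female with 99.53% of the counts of 66 X-linked genes on the CC019 allele, against 58.6 to 93.4% in the other F1 females, was taken to be the mouse that the study set aside for having a single X chromosome. It was left out, so 29 mice were used, 13 males and 16 females, of which 14 were F1s. The depth was 27672008 to 63258035 expected counts per mouse, and its median was 37888559 for inbreds and 37775881 for F1s. The inbreds were sequenced in one batch and the F1s in another, so in the libraries used a difference between inbreds and F1s and a difference between batches cannot be told apart. The study also sequenced some inbreds with the F1s and reported little effect of batch on them, and those second libraries were not analysed here.

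An F1 cell holds both alleles of a gene among the same regulatory proteins, so the alleles of a gene can be compared within a single animal. Unequal RNA from the alleles can follow the strain, as with a sequence difference in a promoter or an enhancer, or it can follow the parent, as in imprinting, where the expressed allele changes with the direction of the cross. The liver is made up mainly of hepatocytes, which carry out much of the body's drug, hormone and sugar metabolism and secrete most plasma proteins, together with endothelial, stellate, biliary and immune cells.

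The libraries were those of liver by their markers. The summed level of 8 hepatocyte markers ran from 105974 through 118249 to 128215 CPM (lowest, median and highest mouse) in CC019, from 72950.3 through 97096.6 to 113587 CPM in CC037, from 115468 through 117825 to 128328 CPM in CC019 x CC037 and from 93903.7 through 128331 to 139363 CPM in CC037 x CC019, with *Alb* the most abundant and none of the 8 at 0. RNA of other tissues was present in 5 libraries. Markers of exocrine pancreas summed to 843 CPM in CC019 male 2 and to 11433 CPM in CC019 female 2, with *Ctrb1* the most abundant of 6 over the inbreds. Markers of skeletal muscle summed to 1139.6 CPM in CC037 female 1 and to 2621 CPM in CC019 x CC037 female 1, with *Acta1* the most abundant of 5 over the inbreds, and markers of fat summed to 178 CPM in CC019 x CC037 male 3, with *Cidec* the most abundant of 5 over the inbreds. No sum of these 3 lists exceeded 61.5 CPM in the other libraries used. Without these 5 libraries 19 members differed by sex and 4 in total between the crosses, against the 20 and 5 described below, and the counts of the other comparisons are given beside them. The part of the other tissues in the results was not tested.

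The members were mostly protein-coding and spanned a wide range of levels. Of the 47, 40 (85.1%) coded for protein, against 97.4% of the 3952 genes from which they were drawn, and the others were 2 long intergenic RNAs, 2 antisense RNAs, 2 further noncoding genes and 1 immunoglobulin gene. Their mean total in the F1s ran from 1.03 through a median of 5.37 to 3153 CPM, and all 47 passed the filter on low counts. The dominant allele supplied between 80.5 and 98.5% of the allelic RNA, with a median of 87.5%. The sign of the ratio was that of the mean in every one of the 14 F1s for 44 members, and the ratio passed 2 in all 14 for 18. With each cross direction taken alone, 38 members passed 2 in both. In the F1 female that was left out, which the rule did not use, all 47 ratios had the same sign and 42 passed 2.

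**Figure D1:**
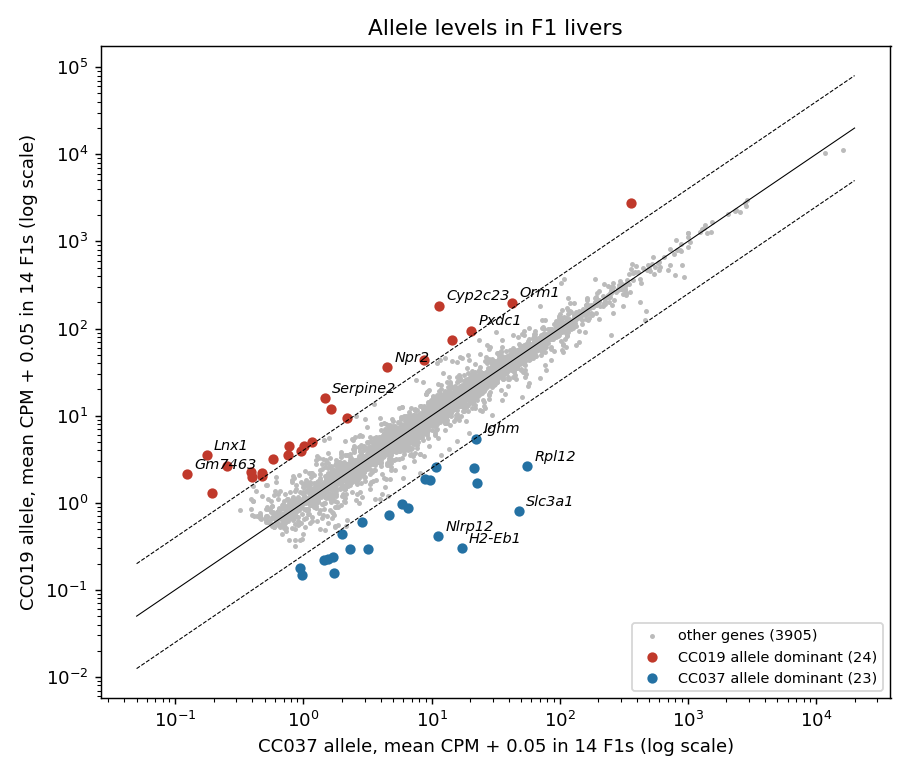
Mean CC019 and CC037 allele levels of the 47 members (red and blue) and of 3905 other genes that met the own-allele and level conditions (grey) over 14 F1s, in CPM with 0.05 added, on log axes. Dashed lines mark a 4-fold ratio, by which the members were chosen; the CC019 allele is dominant at 24 members and the CC037 allele at 23.

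The largest ratios were those of *Slc3a1* (ENSMUSG00000024131, chr17:85028376-85064236), the heavy chain of the cystine and dibasic amino acid transporter, and *H2-Eb1* (ENSMUSG00000060586, chr17:34305867-34316674), the beta chain of a class II histocompatibility molecule. In the F1s the CC019 and CC037 alleles of *Slc3a1* averaged 0.754 ± 0.268 and 48.0 ± 8.43 CPM (SD, n = 14). Those of *H2-Eb1* averaged 0.253 ± 0.120 and 17.1 ± 7.74 CPM. *Nlrp12* (ENSMUSG00000078817, chr7:3218784-3249740), a cytosolic immune sensor, had 0.364 ± 0.320 CPM of its CC019 and 11.2 ± 4.14 CPM of its CC037 allele. These alleles did not overlap over the 14 mice at any of these genes. On the CC019 side the largest ratios were at *Lnx1*, *Gm7463* and *Cyp2c23*, with log2 ratios of 4.33, 4.11 and 4.01. *Cyp2c23* (ENSMUSG00000025197, chr19:44005022-44029208), a cytochrome P450 that forms epoxides of arachidonic acid, had 183 ± 47.4 CPM of the CC019 allele and 11.3 ± 4.40 CPM of the CC037 allele, and its log2 ratio in single mice stayed between 3.65 and 4.72. Just inside the threshold lay *Cd300e* at 2.01, *Ighm* at -2.04 and *Ptgr1* at -2.08, and just outside it lay *Slc18a1* at -1.99, *Tifa* at 1.95 and *Tlr12* at 1.95.

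The strain of the dominant allele also had the higher total in nearly every case among the inbreds. Of the 47 members 43 differed between CC019 and CC037 inbreds (adjusted p at most 0.05 in edgeR's quasi-likelihood test), where 23.9% of 13185 expressed genes did. In 42 the strain with the dominant allele was higher. Of the 24 members with a dominant CC019 allele 20 were higher in CC019, against 12.7% of all expressed genes, and of the 23 with a dominant CC037 allele 22 were higher in CC037, against 11.3%. The median absolute log2 difference between the strains was 2.66 over the members and 0.20 over all expressed genes. Among the 3905 genes that met the own-allele and level conditions without being members, 3891 were tested and 1172 (30.1%) differed between the strains, with a median absolute log2 difference of 0.22.

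The strain differences were large. In 35 members every inbred of one strain lay above every inbred of the other, always in the direction of the dominant allele, against 8.15% of expressed genes without overlap in either direction, and 37 members passed the test with an absolute log2 difference of at least 2 in that direction, against 2.06% of expressed genes. A single member, *Pxdc1*, differed in the opposite direction, and 4 members, *Orm1*, *Evc* and *Mast2* among them, did not pass the test. RNA was taken from whole tissue, so fewer cells of a type and less RNA per cell cannot be told apart. Without the 5 libraries that held RNA of other tissues 41 members passed.

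**Figure D2:**
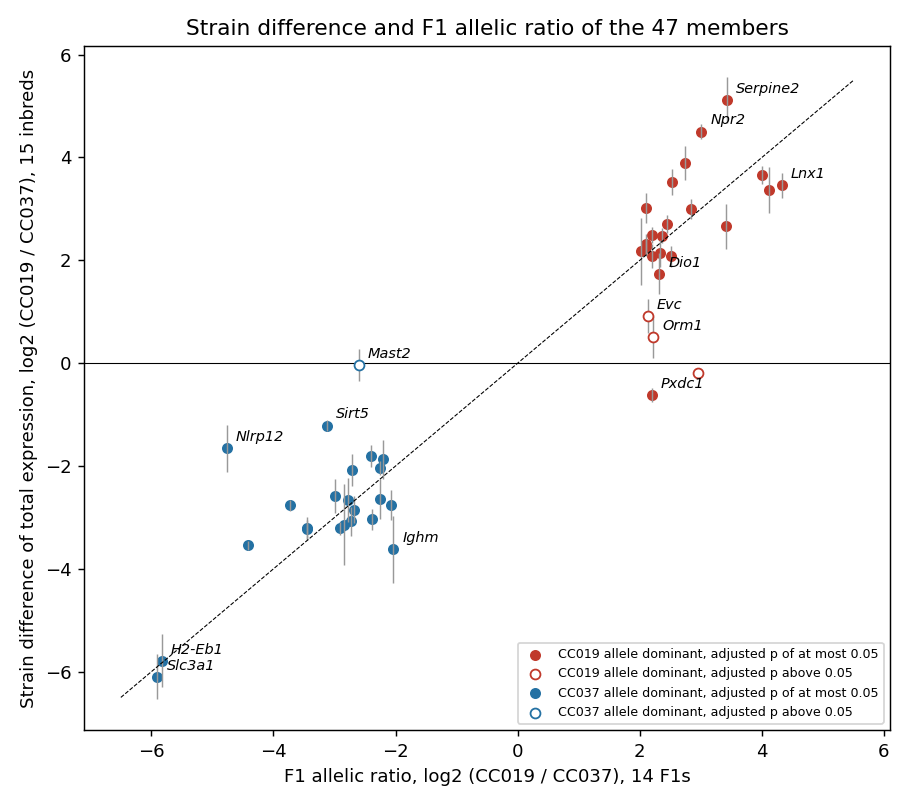
Log2 difference of total expression between inbreds (CC019 minus CC037, vertical) against the log2 ratio of the CC019 to the CC037 allele in F1s (horizontal) for 47 members, with the standard error of the strain difference as bars. Most points lie in the quadrants of equal sign; *Pxdc1* at 2.20 and -0.62 does not.

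Several members take part in metabolism. *Cyp2c23* ran from 294 through 357 to 635 CPM in the 6 CC019 inbreds and from 22.7 through 34.7 to 38.8 CPM in the 9 CC037 inbreds. The lowest CC019 inbred lay far above the highest CC037 inbred. The log2 difference, here and throughout CC019 minus CC037, was 3.65 ± 0.17 (SE, adjusted p = 3.2e-10). *Cyp3a13* (ENSMUSG00000029727, chr5:137892932-137921619), a P450 of a subfamily that oxidizes drugs and steroids, ran from 160.5 through 178 to 214 CPM in CC019 and from 24.3 through 32.6 to 46.5 CPM in CC037. Its strains did not overlap either, with a log2 difference of 2.48 ± 0.14 (adjusted p = 5.4e-09), and its log2 ratio in single F1s ran from 2.16 to 2.67. Both genes belong to families of similar sequence, so the assignment of their reads is uncertain.

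A pair of thyroid hormone genes had dominant CC019 alleles. *Dio1* (ENSMUSG00000034785, chr4:107291465-107307169) codes for the deiodinase that turns thyroxine into its active form, and *Crym* (ENSMUSG00000030905, chr7:120186380-120202111) for a protein that binds thyroid hormone in the cytosol. *Dio1* ran from 88.1 through 177 to 204 CPM in CC019 and from 7.89 through 49.6 to 112 CPM in CC037. The strains overlapped, since the CC037 females reached 112 CPM and a CC019 male had 88.1 CPM, and the log2 difference of 1.74 ± 0.40 passed the test (adjusted p = 0.005). For *Crym* the values were 3.80, 8.39 and 13.1 CPM in CC019 and 0.422, 0.800 and 1.14 CPM in CC037 (lowest, median and highest). All CC019 inbreds were above all CC037 inbreds (log2 difference 3.52 ± 0.26, adjusted p = 7.0e-08).

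*Sirt5* (ENSMUSG00000054021, chr13:43365496-43395203), which removes succinyl and malonyl groups from mitochondrial proteins, had a dominant CC037 allele and a smaller strain difference than its ratio. Totals ran from 11.1 through 13.3 to 15.3 CPM in CC019 and from 28.6 through 31.4 to 36.8 CPM in CC037. No CC019 inbred reached the lowest CC037 inbred, and the log2 difference was -1.21 ± 0.10 (adjusted p = 3.6e-07), while the log2 ratio of the alleles in the F1s was -3.12. *Ptgr1* (ENSMUSG00000028378, chr4:58965439-58987119), a reductase of prostaglandins and leukotrienes, ran from 1.55 through 2.66 to 5.29 CPM in CC019 and from 10.8 through 18.6 to 32.4 CPM in CC037. Again every CC037 inbred was above every CC019 inbred (log2 difference -2.76 ± 0.29, adjusted p = 4.0e-06). *Jmjd7* (ENSMUSG00000098789, chr2:120027483-120032594), a hydroxylase of the JmjC family, had 0.0966, 0.297 and 0.435 CPM in CC019 and 2.28, 2.85 and 3.22 CPM in CC037 as the lowest, median and highest values. These groups did not meet, and the log2 difference was -3.21 ± 0.22 (adjusted p = 3.7e-08). *Sugct*, which transfers coenzyme A to glutarate, was chosen for mention after its values were seen. It had 4.72 to 6.51 CPM in CC019 and 33.2 to 44.8 CPM in CC037, without overlap (log2 difference -2.76 ± 0.11, adjusted p = 3.4e-11).

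All 4 solute carriers among the members had dominant CC037 alleles, and all 4 were higher in CC037 inbreds. The family had 385 genes in the annotation, of which 243 were expressed and 88 met the own-allele and level conditions. Over the 243 expressed carriers 28 were higher in CC019 and 43 in CC037. *Slc3a1* ran from 1.02 through 1.43 to 2.86 CPM in CC019 and from 60.8 through 100.3 to 279 CPM in CC037, where CC037 female 3 alone stood at 279 CPM. The strains were far apart without overlap (log2 difference -6.10 ± 0.44, adjusted p = 5.3e-08). *Slc15a5* (ENSMUSG00000044378, chr6:137983586-138079916), of a family of peptide transporters, ran from 0.0285 through 0.553 to 1.20 CPM in CC019 and from 1.22 through 3.49 to 12 CPM in CC037. The highest CC019 mouse and the lowest CC037 mouse nearly touched, and the log2 difference was -3.14 ± 0.79 (adjusted p = 0.009). In CC019 x CC037 and CC037 x CC019, male F1s averaged 2.33 and 5.86 CPM of *Slc15a5* and females 0.0722 and 0.168 CPM. Its log2 ratio of mean alleles was -3.03 in male F1s and -1.19 in female F1s, so females alone fell short of the threshold. In edgeR's test female minus male, 0.92, did not pass (adjusted p = 0.87). The ratio passed 2 in 7 F1s and had the sign of the mean in 11. *Slc30a3* (ENSMUSG00000029151, chr5:31086106-31108237) and *Slc39a2* (ENSMUSG00000072572, chr14:51892889-51896745) move zinc in opposite directions, the former out of the cytosol and the latter into it. *Slc30a3* had 0.185, 0.472 and 0.537 CPM in CC019 and 1.21, 1.52 and 1.9 CPM in CC037 (log2 difference -1.81 ± 0.21, adjusted p = 1.1e-05). *Slc39a2* had 0.0644, 0.734 and 1.09 CPM in CC019 and 3.18, 3.98 and 8.66 CPM in CC037 (log2 difference -2.64 ± 0.40, adjusted p = 1.5e-04). Neither zinc transporter showed overlap between the strains.

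Among secreted proteins, *Serpine2* (ENSMUSG00000026249, chr1:79794197-79861180), a protease inhibitor also called protease nexin-1, had the largest strain difference on the CC019 side. It ran from 17.4 through 34.9 to 87.2 CPM in CC019 and from 0.485 through 1.29 to 2.68 CPM in CC037. The groups were widely separated (log2 difference 5.12 ± 0.45, adjusted p = 5.5e-07). It was the sole member among 8 serpins that met the own-allele and level conditions. The remaining secreted members, chosen for mention after their values were seen, were *Itih5*, an inter-alpha-trypsin inhibitor heavy chain, *Defb1*, an antimicrobial defensin, and *A2ml1*, a relative of alpha-2-macroglobulin. Their log2 differences were 2.26 ± 0.18, 2.14 ± 0.27 and -2.85 ± 0.26 (adjusted p = 1.8e-07, 2.7e-05 and 1.0e-06), each in the direction of the dominant allele and without overlap. For *A2ml1* the estimated counts lay almost wholly on *A2ml1-203*, annotated as a transcript with a retained intron and not as coding for protein. In the F1s it held 100% of the counts of the CC019 allele and 99.5% of those of the CC037 allele. *Orm1*, an acute-phase plasma protein, is described with the exceptions.

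Receptors and immune genes were split as well. *Npr2* (ENSMUSG00000028469, chr4:43631935-43651244), the guanylate cyclase receptor of C-type natriuretic peptide, ran from 87.7 through 103 to 135 CPM in CC019 and from 3.91 through 4.66 to 7.46 CPM in CC037. No mouse fell between the groups, and the log2 difference was 4.50 ± 0.14 (adjusted p = 2.3e-12). *H2-Eb1* ran from 0.129 through 0.359 to 0.882 CPM in CC019 and from 10.3 through 26.9 to 43.2 CPM in CC037. CC019 inbreds were all under 1 CPM, far below CC037 (log2 difference -5.79 ± 0.51, adjusted p = 6.6e-07). Reads of *H2-Eb1* may be shared with related class II genes. The 5 dendritic cell markers, with *Zbtb46* the most abundant and none at 0 in all inbreds, summed to 2.97, 5.55 and 8.40 CPM in CC019 and to 4.84, 6.36 and 11.5 CPM in CC037 (lowest, median and highest), and neither of the 2 that were tested differed between the strains. Their part in the *H2-Eb1* difference was not tested.

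*Ighm* (ENSMUSG00000076617, chr12:113418558-113422730), the constant region of the immunoglobulin M heavy chain, ran from 2.40 through 3.40 to 25.7 CPM in CC019 and from 23.3 through 64.5 to 273 CPM in CC037. The strains overlapped at a single CC019 mouse, female 2 with 25.7 CPM, which is the library with the most pancreas RNA. The log2 difference was -3.62 ± 0.65 (adjusted p = 7.7e-04), and the gene shares reads with other immunoglobulin genes. The 5 B cell markers, with *Cd79a* the most abundant, summed to 0.387, 2.15 and 7.94 CPM in CC019 and to 2.84, 4.54 and 11.5 CPM in CC037 (lowest, median and highest). All 5 were tested and none was at 0 in all inbreds, and their log2 differences lay between -1.14 and -0.79 with adjusted p between 0.11 and 0.29, so none passed. Their part in the *Ighm* difference was not tested.

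*Nlrp12* and *Cd300e* are genes of myeloid cells with opposite dominant alleles. *Nlrp12* ran from 2.28 through 4.23 to 18.5 CPM in CC019 and from 12.5 through 17.0 to 37.3 CPM in CC037. CC019 male 3 alone, at 18.5 CPM, reached into the CC037 range, and the log2 difference was -1.65 ± 0.46 (adjusted p = 0.016). It ran from -2.91 in females alone to -0.94 in males alone. The call was lost in males alone (adjusted p = 0.17), with a clock gene score as covariate (0.11) and without the libraries that held RNA of other tissues (0.11). *Cd300e* (ENSMUSG00000048498, chr11:115051917-115062177), an activating receptor, ran from 2.10 through 6.46 to 16.4 CPM in CC019 and from 0.290 through 0.771 to 6.81 CPM in CC037. The strains overlapped, with CC037 female 2 at 6.81 CPM above the CC019 males, and the log2 difference of 2.17 ± 0.66 (adjusted p = 0.025) was lost without CC019 female 3 (1.85, adjusted p = 0.061), without the other-tissue libraries (2.22, adjusted p = 0.060) and with the clock gene score as covariate (3.41, adjusted p = 0.062). The 6 Kupffer cell markers, led by *Cd5l*, summed to 52.3, 147 and 490.1 CPM in CC019 and to 106, 186 and 663 CPM in CC037. None of the 6 differed between the strains or was at 0 in all inbreds. The 5 neutrophil markers, led by *S100a9*, summed to 0.156, 2.25 and 4.04 CPM in CC019 and to 0.212, 0.541 and 2.86 CPM in CC037. All 5 were found, 0 had enough counts to be tested, and none was at 0 in all inbreds. The part of both cell types in these results was not tested. *C5ar2*, a receptor of the complement fragment C5a that was chosen for mention after its values were seen, was higher in CC037 (log2 difference -2.08 ± 0.32, adjusted p = 1.6e-04).

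Some members take part in signalling or protein turnover. *Lnx1* (ENSMUSG00000029228, chr5:74592447-74702912), a ubiquitin ligase, ran from 5.34 through 9.60 to 11.1 CPM in CC019 and from 0.278 through 0.897 to 1.28 CPM in CC037. Its strains were well separated (log2 difference 3.46 ± 0.25, adjusted p = 5.4e-08). *Sh3bp2* (ENSMUSG00000054520, chr5:34525838-34563641), an adaptor protein of immune receptor signalling, ran from 21.9 through 27.0 to 35.6 CPM in CC019 and from 2.17 through 3.79 to 5.17 CPM in CC037. These values did not overlap (log2 difference 3.0 ± 0.20, adjusted p = 1.8e-08). *Fermt1* (ENSMUSG00000027356, chr2:132904389-132945906), kindlin-1, which activates integrins, ran from 0.933 through 2.51 to 6.07 CPM in CC019 and from 0.211 through 0.423 to 1.03 CPM in CC037. CC019 male 3 alone lay within the CC037 range, and the log2 difference was 2.66 ± 0.44 (adjusted p = 3.3e-04). On the CC037 side, *Fbxo44* (ENSMUSG00000029001, chr4:148152800-148160482), an F-box protein of a ubiquitin ligase, ran from 0.129 through 0.301 to 0.626 CPM in CC019 and from 2.29 through 2.89 to 3.41 CPM in CC037. It showed no overlap (log2 difference -3.08 ± 0.28, adjusted p = 9.4e-07).

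The strain difference with the smallest standard error was that of *Rpl12* (ENSMUSG00000038900, chr2:32961559-32965345), a protein of the large ribosomal subunit. Its totals ran from 7.47 through 8.49 to 9.17 CPM in CC019 and from 89.9 through 105 to 117 CPM in CC037. The strains did not overlap, and the log2 difference of -3.54 had a standard error of 0.085 (adjusted p = 5.0e-14). In the F1s the CC037 allele supplied 95.6% of the allelic RNA. Ribosomal protein genes have many processed copies, and a read of one may be assigned to another, so this level is uncertain. *Lrit2* (ENSMUSG00000043418, chr14:37067929-37073743), a membrane protein with leucine-rich repeats, ran from 0.400 through 0.564 to 0.845 CPM in CC019 and from 4.93 through 5.78 to 7.71 CPM in CC037. CC037 was above CC019 in every mouse (log2 difference -3.23 ± 0.19, adjusted p = 6.0e-09). *Crygn* (ENSMUSG00000038135, chr5:24751003-24758008), a crystallin, ran from 0.554 through 0.727 to 1.83 CPM in CC019 and from 1.10 through 3.90 to 5.74 CPM in CC037. Its strains overlapped (log2 difference -1.87 ± 0.38, adjusted p = 0.0019), and the call was lost in males alone (-1.61, adjusted p = 0.065). *Lrit1*, *Tspyl5*, *Rbm20*, *Ttc39a*, *Ccdc68* and *Ccdc122*, named here after their values were seen so that every member is accounted for, differed in the direction of the dominant allele by absolute log2 values of 2.04 to 3.01, without overlap.

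Some members do not code for protein. *Ttc39aos1* (ENSMUSG00000085873, chr4:109403794-109406155), an antisense RNA next to *Ttc39a*, ran from 1.26 through 1.60 to 2.85 CPM in CC019 and from 0.0272 through 0.115 to 0.211 CPM in CC037. The strains did not overlap (log2 difference 3.89 ± 0.33, adjusted p = 3.3e-07). *AC132455.2* (ENSMUSG00000117485, chr17:84134033-84156440) ran from 0.985 through 1.23 to 1.48 CPM in CC019 and from 9.36 through 12.2 to 14.4 CPM in CC037, again without overlap (log2 difference -3.21 ± 0.13, adjusted p = 6.7e-11). Among the members 4 were gene models without a family name, of 150 such models that met the own-allele and level conditions and 1121 that were expressed. They were *9030407P20Rik* (ENSMUSG00000097343, chr7:120673436-120677570), *Gm44751* (ENSMUSG00000109244, chr7:88311478-88315864) and *Gm7463* (ENSMUSG00000106889, chr6:37541414-37541960), higher in CC019 with log2 differences of 2.71 ± 0.17, 2.09 ± 0.24 and 3.37 ± 0.45, and *Gm16573* (ENSMUSG00000090038, chr14:56607261-56620513), higher in CC037 at -2.59 ± 0.34 (adjusted p = 1.1e-08, 8.1e-06, 4.5e-05 and 3.6e-05). Of these 4 only *Gm7463*, at 0.418 to 5.11 CPM in CC019 and 0.122 to 0.487 CPM in CC037, overlapped between the strains, and its reads may be shared with similar genes.

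**Figure D3:**
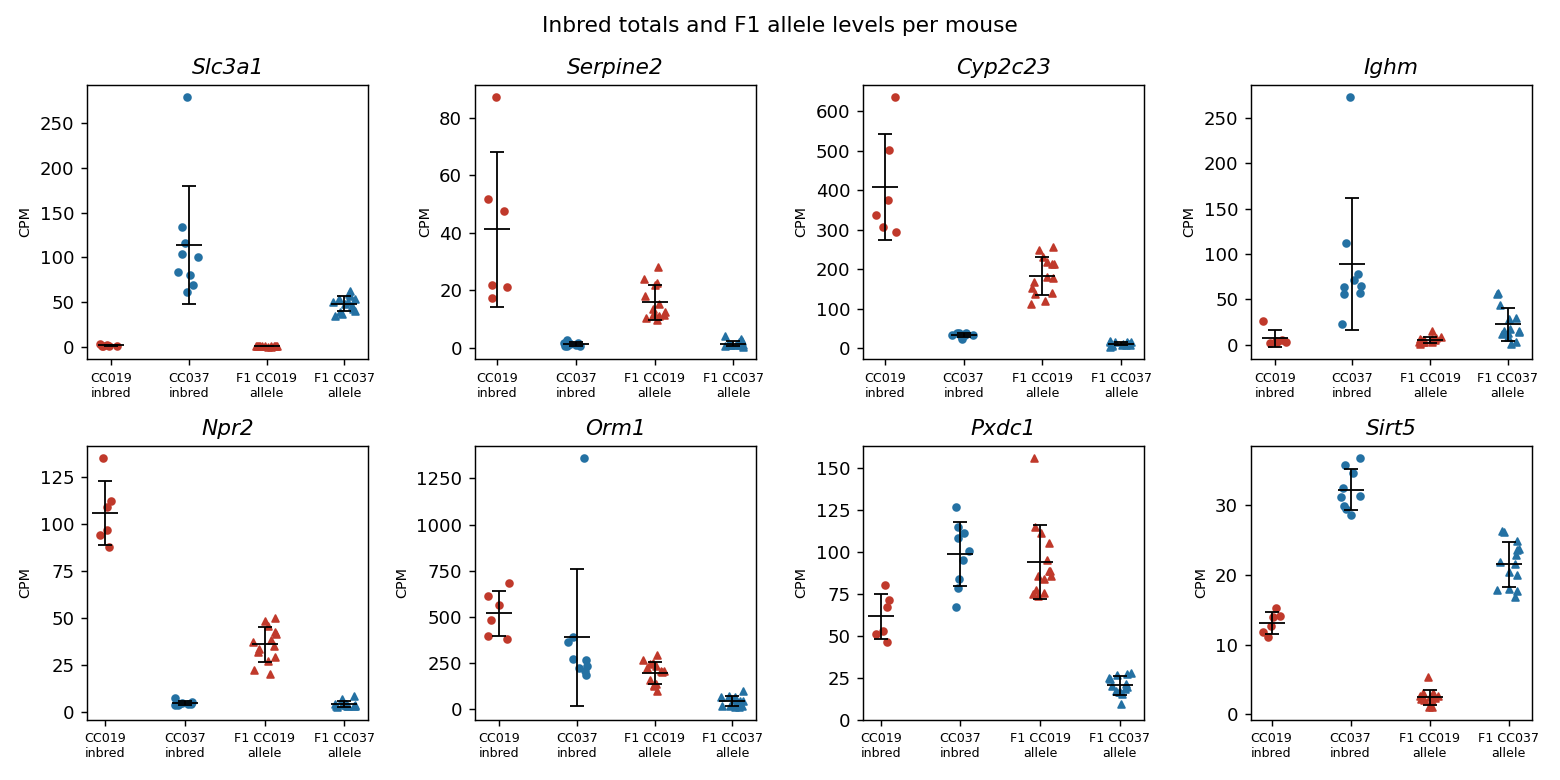
CPM per mouse of 8 members. Circles are totals of the 6 CC019 and 9 CC037 inbreds, triangles the CC019 and CC037 alleles in each of 14 F1s, and bars the mean ± SD of each column. *Slc3a1*, *Serpine2* and *Cyp2c23* are separated in both inbreds and F1s, while *Pxdc1* has the higher totals in CC037 inbreds although its CC019 allele, at 93.9 CPM, is above its CC037 allele, at 20.4 CPM, in the F1s.

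In all, 5 members departed from the rule that the strain of the dominant allele is higher, and *Pxdc1*, *Orm1*, *Evc* and *Mast2* are described here. In TPM, a unit scaled by transcript length, *Orm1* averaged 556 ± 197 TPM (SD, n = 14) in the F1s, *Cyp2c23* 151 ± 37.5 TPM, *Rpl12* 90.2 ± 8.36 TPM and *Pxdc1* 75.7 ± 19.8 TPM. The spreads of *Rpl12* and *Pxdc1* overlap, and those of the other neighbours in this order do not.

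*Pxdc1* (ENSMUSG00000021411, chr13:34627834-34653486), which codes for a protein with a phosphoinositide-binding PX domain, was the member whose strain difference had the opposite sign. Its CC019 allele averaged 93.9 ± 22.2 CPM and its CC037 allele 20.4 ± 5.37 CPM in the F1s. The inbreds ran from 46.5 through 60.2 to 80.4 CPM in CC019 and from 67.2 through 100.5 to 127 CPM in CC037. The ranges overlapped with CC037 the higher (log2 difference -0.62 ± 0.14, adjusted p = 0.0034, 0.090 with a clock gene score as covariate). The estimated split over transcripts also differed between the alleles. In the F1s 44.4% of the counts of the CC019 allele were on *Pxdc1-202*, 45.8% on *Pxdc1-203* and 9.56% on *Pxdc1-201*, whereas 99.2% of those of the CC037 allele were on *Pxdc1-202* and none on *Pxdc1-203*. The inbreds of both strains used all 3, with 55.6, 36.2 and 8.22% in CC019 and 60.8, 33.1 and 5.96% in CC037 on *Pxdc1-202*, *Pxdc1-203* and *Pxdc1-201*. These are Salmon's estimates per transcript and allele, so the assignment of the reads is uncertain, and the difference was not tested.

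*Orm1* (ENSMUSG00000039196, chr4:63344560-63348163) codes for orosomucoid, an acute-phase glycoprotein of plasma. Inbred totals ran from 382 through 524 to 683 CPM in CC019 and from 184 through 266 to 1359.8 CPM in CC037. CC037 female 3 stood apart at 1359.8 CPM, and without it the CC037 inbreds ran up to 391 CPM. The log2 difference was 0.50 ± 0.41 (adjusted p = 0.4) with this mouse and 1.06 (adjusted p = 0.0016) without it. The difference also passed with a clock gene score as covariate, at 1.80 (adjusted p = 0.012), and in males alone, and was -0.33 in females alone (adjusted p = 0.76). *Orm1* belongs to a cluster of similar genes that can share reads. *Evc* (ENSMUSG00000029122, chr5:37289098-37336894), a protein of the primary cilium in hedgehog signalling, ran from 0.885 through 2.67 to 5.94 CPM in CC019 and from 1.13 through 1.41 to 2.83 CPM in CC037. The strains overlapped and the log2 difference was 0.92 ± 0.33 (adjusted p = 0.052). It passed under 6 of 25 alternatives: when CC019 male 1, CC019 male 3 or CC037 female 1 was left out, in DESeq2, with sex as a covariate and in females alone. Over the alternatives it ran from 0.38 in males alone (adjusted p = 0.44) to 1.25 in females alone.

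*Mast2* (ENSMUSG00000003810, chr4:116306762-116464183), a microtubule-associated kinase, was a member by the deposited counts per gene alone. Inbred totals ran from 6.6 through 12.7 to 16.3 CPM in CC019 and from 4.07 through 14.3 to 20.4 CPM in CC037. The strains overlapped throughout (log2 difference -0.03 ± 0.32, adjusted p = 0.95). When the deposited estimates per transcript were summed by gene, the CC019 sum over the F1s was 1378% of the deposited value and the log2 ratio was 1.21 in place of -2.60. The transcript *Mast2-203* held 7639 reads of the CC019 allele over the 14 F1s, and in the CC037 inbreds it held 1997 reads of the CC019 version against 1019 of the CC037 version, and the lowest own-allele share was 58.0% with sums. With sums *C5ar2* also ceased to be a member, with 90.8% of its deposited CC019 and 85.7% of its CC037 value. For the other 45 members both alleles matched the deposited values within 1%, and among the 3952 genes 61 (1.54%) did not.

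Most F1 totals lay between those of the strains. The mean of the 14 F1s was between the means of CC019 and CC037 for 42 members, above both for *Evc* and *Pxdc1* and under both for 3 members, *Mast2* and *Orm1* among them. As a share of the mean of the strain with the dominant allele, the F1 totals had a median of 60.2% (quartiles 50.3 and 65.4%, range 31.3 to 187%), and as a share of the average of both strain means a median of 102%. *Rpl12*, at 56.4% of CC037, and *Cyp2c23*, at 47.7% of CC019, lay close to the middle. Lower shares were those of *Ighm* (31.3% of CC037) and *Dio1* (31.9% of CC019), and the share of *Fermt1* was 90.9% of CC019. These are descriptions, since the batch of the F1s was not that of the inbreds.

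Between CC019 x CC037 and CC037 x CC019 F1s the allelic ratio differed for 1 of 47 members, against 0.17% of 4120 genes tested, and 6 members had an unadjusted p under 0.05. No ratio among the 23 members with a dominant CC037 allele differed in edgeR's test (3 with an unadjusted p under 0.05) or in DESeq2 (2 with an unadjusted p under 0.05). The median difference over the members, CC019 x CC037 minus CC037 x CC019, was -0.11, and the median absolute difference was 0.30, against 0.10 over all genes tested. The members were chosen for a scarce allele in these same F1s, and a ratio with few counts on one allele varies more between mice. The part of this in the larger median was not tested. The largest estimates, those of *Defb1*, -1.72 (adjusted p = 0.44), and *Fbxo44*, 1.61 (adjusted p = 0.53), did not pass; both are named after their values were seen. A ratio that did not pass is not shown to be equal in the crosses. The gene that passed was *Orm1*. Its log2 ratio ran from 2.50 through 3.46 to 3.62 in the 6 CC019 x CC037 and from 1.61 through 2.01 to 2.18 in the 8 CC037 x CC019 F1s. All CC019 x CC037 mice were above all CC037 x CC019 mice, and the CC019 allele was the dominant one in both crosses. The difference was 1.27 ± 0.18 (adjusted p = 0.0086). Leaving out the F1s with RNA of other tissues gave 1.16 (adjusted p = 0.21), and then no member passed in edgeR, with 5 at an unadjusted p under 0.05, while 1 of all 4120 genes did.

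**Figure D4:**
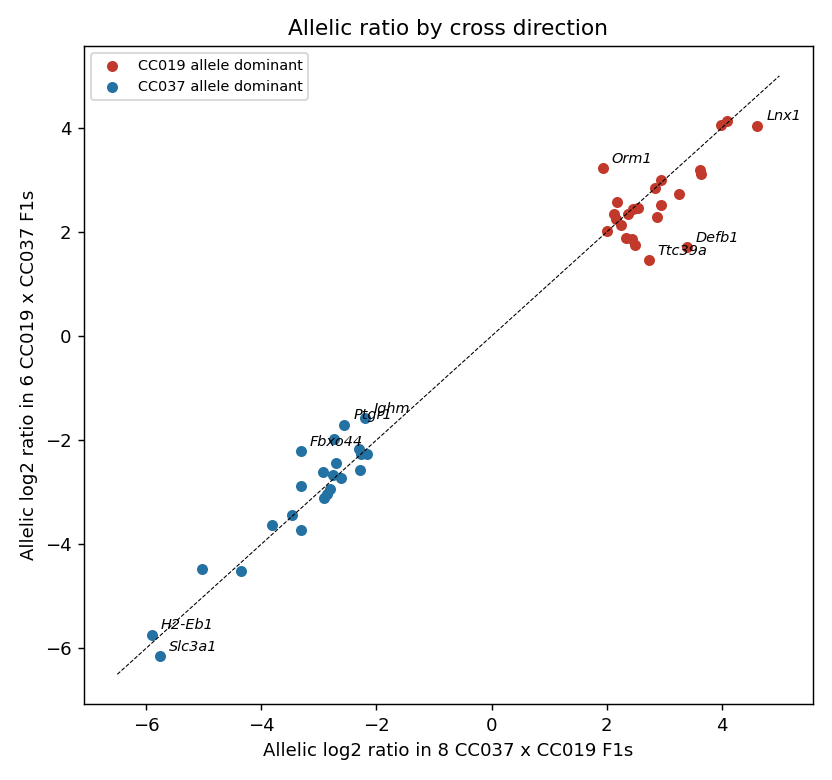
Log2 ratio of the CC019 to the CC037 allele in 6 CC019 x CC037 F1s (vertical) against 8 CC037 x CC019 F1s (horizontal) for 47 members. The points follow the diagonal with no member changing its dominant allele; *Orm1* lies above it.

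The totals of 5 members differed between the crosses, against 4.51% of 13185 genes, and 14 had an unadjusted p under 0.05. *Orm1* was lower in CC019 x CC037, at 116, 148 and 223 CPM (lowest, median and highest), than in CC037 x CC019 at 248, 301 and 390.2 CPM. The crosses did not overlap (log2 difference -1.02 ± 0.14, adjusted p = 0.004). *Ighm* was also lower, with 6.19, 14.1 and 34.3 CPM against 16.1, 29.6 and 72.8 CPM. Here the ranges overlapped in part (log2 difference -1.47 ± 0.25, adjusted p = 0.0085). The 5 B cell markers summed to 2.65, 4.53 and 7.98 CPM in CC019 x CC037 and to 2.06, 5.08 and 7.50 CPM in CC037 x CC019, and their part was not tested. *Slc15a5* ran from 0 through 1.09 to 2.81 CPM in CC019 x CC037 and from 0.0763 through 0.259 to 6.35 CPM in CC037 x CC019. The crosses overlapped over all mice, though every CC019 x CC037 male was below every CC037 x CC019 male, and the log2 difference was -1.31 ± 0.34 (adjusted p = 0.046). *Crygn* ran from 0.981 through 1.56 to 2.62 against 1.65 through 2.85 to 4.16 CPM. Its crosses overlapped in part (log2 difference -0.85 ± 0.22, adjusted p = 0.048). *Crym* was the one member that was higher in CC019 x CC037, from 3.65 through 4.98 to 11.5 CPM against 2.51 through 4.36 to 6.04 CPM. Its ranges overlapped too (log2 difference 0.73 ± 0.19, adjusted p = 0.046).

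A score of clock genes had medians of 0.00 in CC019 x CC037 (-1.66 to 3.04) and -1.48 in CC037 x CC019 (-2.66 to -1.15). Among inbreds the medians were 3.09 in CC019 (1.53 to 3.13) and 1.40 in CC037 (-1.32 to 1.99). With the score as a covariate 41 members passed between the strains, with *Pxdc1*, *Cd300e* and *Nlrp12* lost and *Orm1* gained, and the log2 difference of *Dio1* was 2.67. Between the crosses, with this score as a covariate *Ighm* (adjusted p = 0.023) and *Orm1* (adjusted p = 0.011) still passed, while *Slc15a5* (0.16), *Crygn* (0.10) and *Crym* (0.12) did not. With it 6 members passed in all, the others being *Cyp2c23*, *Defb1*, *Pxdc1* and *Lrit1*, named here after their values were seen. The calls of *Slc15a5*, *Crygn* and *Crym* rested on single mice as well. *Slc15a5* passed when CC019 x CC037 male 4, CC019 x CC037 female 1 or CC037 x CC019 female 1 was left out and not with any of the other 11 F1s left out (adjusted p 0.03 to 0.087 over all 14). *Crygn* passed with CC019 x CC037 male 4 left out alone (0.021 to 0.095), and *Crym* with CC019 x CC037 male 4 or female 1 left out (0.0021 to 0.1).

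Sex differences were common among the members, as among all genes. Of the 47 members 20 differed between females and males over the 29 mice, 9 higher in females and 11 higher in males, where 40.9% of expressed genes differed, 20.3% higher in females and 20.6% higher in males. The share of the members is therefore close to that of all genes. The median absolute log2 difference was 0.30 over the members and 0.16 over all genes. *Slc15a5* was the most male-biased, from 0 through 0.126 to 3.49 CPM in 16 females and from 0.998 through 5.36 to 12 CPM in 13 males. CC019 males and CC019 x CC037 males lay below or within the range of the CC037 females, while within each strain and cross all males were above all females. Within strains and crosses the level in females fell by 3.67 ± 0.34 on the log2 scale (adjusted p = 2.1e-09). *Fermt1* was higher in females, from 0.324 through 3.78 to 6.07 CPM against 0.211 through 1.03 to 1.72 CPM in males. The overlap came from the low CC037 females (log2 difference, female minus male, 1.5 ± 0.16, adjusted p = 2.4e-08). *Crym* ran from 0.623 through 4.64 to 13.1 CPM in females and from 0.422 through 2.76 to 6.38 CPM in males. Both sexes spanned the strains, and within groups females were higher (0.80 ± 0.13, adjusted p = 2.0e-05). *Sirt5* was lower in females, with 11.1, 22.2 and 34.6 CPM against 14, 27.6 and 36.8 CPM. The sexes overlapped and the difference was small (-0.30 ± 0.05, adjusted p = 2.8e-05). *Gm44751* was higher in females, with 1.03, 2.86 and 6.49 CPM against 0.673, 1.85 and 3.19 CPM. The sexes overlapped over all mice (0.66 ± 0.11, adjusted p = 2.8e-05).

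Of the other 15 members with a sex difference, those named here were chosen after their values were seen. Higher in females were *Ccdc68*, *Dio1*, *H2-Eb1*, *Gm7463*, *Evc* and *Cd300e*, with log2 differences from 0.53 to 1.61. Higher in males were *Serpine2*, *Tspyl5*, *Ttc39aos1*, *A2ml1*, *Cyp2c23*, *Sugct* and *Npr2*, with log2 differences from -0.98 to -0.28.

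The strain difference itself depended on sex for 5 members, 1 with a positive and 4 with a negative interaction, against 17.9% of expressed genes, and 15 had an unadjusted p under 0.05. The value is the strain difference in females minus that in males. *Sh3bp2* had 27.3, 25.3 and 26.6 CPM in the 3 CC019 females, 21.9, 31.2 and 35.6 CPM in the 3 CC019 males, 4.77, 5.17, 5.07, 3.80 and 3.79 CPM in the 5 CC037 females and 2.17, 2.95, 2.82 and 2.52 CPM in the 4 CC037 males. Every CC037 female was above every CC037 male, while the CC019 sexes overlapped (interaction -1.14 ± 0.23, adjusted p = 0.0057). *Slc15a5* had 0.0308, 0.0285 and 0.107 CPM in CC019 females, 1.20, 1.03 and 0.998 CPM in CC019 males, 2.47, 2.53, 3.49, 1.51 and 1.22 CPM in CC037 females and 8.53, 12, 8.89 and 8.06 CPM in CC037 males. Males were above females in both strains, by more in CC019 (interaction -2.22 ± 0.63, adjusted p = 0.027). The CC019 females held 1, 1 and 5 counts of this gene, and the call was lost when CC019 male 1, CC019 female 1 or CC019 female 2 was left out (adjusted p = 0.053, 0.078 and 0.088).

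*Fbxo44*, *Ptgr1* and *Npr2* passed narrowly. *Fbxo44* had 0.185, 0.313 and 0.129 CPM in CC019 females, 0.411, 0.626 and 0.290 CPM in CC019 males, 3.0, 2.78, 3.18, 2.89 and 2.49 CPM in CC037 females and 2.29, 3.41, 2.64 and 3.32 CPM in CC037 males. The sexes overlapped in both strains (interaction -1.26 ± 0.39, adjusted p = 0.037). *Ptgr1* had 2.53, 2.79 and 5.29 CPM in CC019 females, 1.55, 2.88 and 2.16 CPM in CC019 males, 10.8, 19.4, 18.2, 15.8 and 12.7 CPM in CC037 females and 22.3, 32.4, 31.1 and 18.6 CPM in CC037 males. In CC037 all males but 1 were above all females, while the CC019 sexes overlapped (interaction 1.28 ± 0.41, adjusted p = 0.047). *Npr2* had 112, 87.7 and 94.2 CPM in CC019 females, 96.7, 135 and 109 CPM in CC019 males, 7.46, 5.09, 4.66, 4.72 and 4.62 CPM in CC037 females and 3.94, 4.49, 3.91 and 5.42 CPM in CC037 males. The sexes overlapped in both strains, with CC037 female 1, a library with muscle RNA, at 7.46 CPM (interaction -0.66 ± 0.21, adjusted p = 0.048). Leaving out 1 inbred at a time, *Fbxo44* was lost with 7 of 15 (CC019 males 1 and 2, CC019 females 1 and 3, CC037 female 3, CC037 males 1 and 3), with adjusted p of 0.022 to 0.1 over the 15. *Ptgr1* passed only without CC019 male 2, CC019 female 1, CC037 female 2, CC037 female 3 or CC037 male 4 (0.034 to 0.15). *Npr2* passed only without CC019 male 1, CC019 female 1, CC037 female 1, CC037 female 4, CC037 male 4 or CC037 female 5 (0.036 to 0.12). Without the libraries that held RNA of other tissues the count was again 5, but *Npr2* (-0.35, adjusted p = 0.18) and *Slc15a5* (adjusted p = 0.12) no longer passed, while *Evc* and *C5ar2*, named here after their values were seen, did.

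The allelic ratio differed between female and male F1s for 4 members, against 2.09% of 4120 genes, and 10 had an unadjusted p under 0.05. All 4 had dominant CC019 alleles. Among the 23 members with a dominant CC037 allele no ratio differed in edgeR's or DESeq2's test, with 4 at an unadjusted p under 0.05 in each, and 1, *Ptgr1*, passed in edgeR without the F1s holding RNA of other tissues. In that setting *Cyp2c23* no longer passed (0.41, adjusted p = 0.072), so the count was again 4. *Dio1* had a log2 ratio from 1.59 through 1.94 to 3.03 in the 8 females and from 3.23 through 3.83 to 4.46 in the 6 males. The sexes did not overlap, and the CC019 allele was the more dominant in males (female minus male -1.68 ± 0.27, adjusted p = 0.0043). *Sh3bp2* ran from 2.29 through 2.59 to 2.77 in females and from 3.10 through 3.25 to 4.05 in males. It too was separated by sex (-0.82 ± 0.14, adjusted p = 0.0068), with the same sign as its interaction of strain and sex in the inbreds, which are other mice.

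*Evc* and *Cyp2c23* had the larger ratio in females. For *Evc* the log2 ratio ran from 1.35 through 2.90 to 3.57 in females and from 0.71 through 1.18 to 1.48 in males. The lowest female lay under the highest male (1.61 ± 0.36, adjusted p = 0.032). For *Cyp2c23* it ran from 4.04 through 4.20 to 4.72 in females and from 3.65 through 3.85 to 4.03 in males. All females were above all males, by little (0.38 ± 0.09, adjusted p = 0.0495). Both calls were narrow. *Evc* passed with CC019 x CC037 female 1, CC037 x CC019 male 3 or CC037 x CC019 female 1 left out and not with any of the other 11 F1s left out (0.0068 to 0.075), and *Cyp2c23* only with CC019 x CC037 female 1 or female 4 left out (0.016 to 0.13).

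The members were spread over 15 autosomes, with 9 on chromosome 4, 6 on chromosome 5 and 5 each on chromosomes 7 and 14. In 4 places a pair of members lay near each other, each pair with the same dominant allele. *Ttc39aos1* and *Ttc39a* (ENSMUSG00000028555, chr4:109406623-109444745) are on opposite strands with a gap of 468 bases, and both had dominant CC019 alleles at log2 ratios of 2.73 and 2.10. *Lrit1* (ENSMUSG00000041044, chr14:37054830-37064946) and *Lrit2* follow each other on the same strand with a gap of 2983 bases, and both had dominant CC037 alleles at -2.26 and -3.45. *Crym* and *9030407P20Rik* are 471325 bases apart, and *Uqcrc2* between them had a log2 ratio of 0.00. *AC132455.2* and *Slc3a1* are 871936 bases apart, and the 5 genes between them that met the own-allele and level conditions, *Lrpprc*, *Thada*, *Abcg5*, *Plekhh2* and *1110020A21Rik*, had log2 ratios of 0.02, -0.70, -0.33, 0.33 and -0.62. The neighbours named here were chosen after their values were seen.

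At the level of transcripts, 11 members had 1 transcript and 36 had several. Of the 36, 29 had the same most abundant transcript on both alleles and 7 did not. In 38 members at least 1 transcript differed in length between its CC019 and CC037 versions.

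Of the 17 gene lists looked at, 12 had no member. They were the glucuronosyl- and sulfotransferases, glutathione transferases, carboxylesterases, aldehyde and aldo-keto enzymes, acyl-CoA enzymes, major urinary proteins, ABC transporters, complement and coagulation, apolipoproteins, interferon-inducible genes, C-type lectins and zinc finger genes, of which 2, 4, 3, 15, 14, 0, 13, 17, 8, 9, 2 and 98 genes met the own-allele and level conditions. The cytochromes P450 had 2 members of 17 such genes, and over the 58 that were expressed 7 were higher in CC019 and 6 in CC037. The histocompatibility genes had 1 member of 5, *H2-Eb1*.

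Promoters are shown for *Slc3a1*, which has the largest ratio, and for the adjacent pair *Lrit1* and *Lrit2*. Windows of 300 bases at transcript starts given by RefSeq on GRCm38.p6 were at hand for 33 of 47 members, and a RefSeq start can differ from the start of the gene given above. Both strands were searched for the TATA box (TATAAA), for part of HNF1 sites (GTTAAT), for the core of HNF4 sites (CAAAGTCCA) and for the CCAAT box (CCAAT), which were present in 13.6, 7.10, 0.475 and 37.4% of 32851 promoters and in 4, 3, 2 and 9 of the 33. These are matches of letters in the reference sequence and not measured binding, and the CC019 and CC037 alleles were not read. Capitals mark the matches. *Slc3a1* (chr17:85028097-85028396, plus strand) held the TATA box, the HNF4 core and the HNF1 part, *Lrit2* (chr14:37067779-37068078, plus strand) held the CCAAT box, and *Lrit1* (chr14:37054580-37054879, plus strand) held none of the 4.
Slc3a1: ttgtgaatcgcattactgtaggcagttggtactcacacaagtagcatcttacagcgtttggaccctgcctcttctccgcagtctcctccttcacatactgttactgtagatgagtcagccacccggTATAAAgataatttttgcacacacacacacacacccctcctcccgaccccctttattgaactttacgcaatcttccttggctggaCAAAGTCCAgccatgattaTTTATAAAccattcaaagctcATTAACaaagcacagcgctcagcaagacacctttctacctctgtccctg
Lrit1: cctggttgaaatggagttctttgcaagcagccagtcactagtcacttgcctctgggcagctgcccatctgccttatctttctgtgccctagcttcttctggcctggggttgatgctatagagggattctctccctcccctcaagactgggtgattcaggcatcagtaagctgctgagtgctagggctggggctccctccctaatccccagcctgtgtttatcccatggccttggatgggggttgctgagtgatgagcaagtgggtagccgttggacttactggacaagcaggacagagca
Lrit2: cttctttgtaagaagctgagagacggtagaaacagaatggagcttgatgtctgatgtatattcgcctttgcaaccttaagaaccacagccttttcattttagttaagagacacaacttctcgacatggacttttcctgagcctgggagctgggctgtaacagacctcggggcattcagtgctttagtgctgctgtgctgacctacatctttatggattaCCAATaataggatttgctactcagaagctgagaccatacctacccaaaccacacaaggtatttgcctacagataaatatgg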

How the data were processed

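Gene expression was measured by RNA-seq of liver from 30 mice, 1 library per mouse. The authors made the deposited expected counts per gene and allele with Salmon 1.9.0 against a diploid transcriptome of both strains, and fishpond added up the transcripts of each gene per allele. The deposited TPM values per transcript and allele are Salmon's, scaled by the authors over both alleles and per effective length. Gene names, positions and types came from GENCODE M21 on GRCm38 and promoters from RefSeq on GRCm38.p6.

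CPM used each mouse's total over both alleles. Tests used rounded expected counts in edgeR 4.0.16 (limma 3.58.1, R 4.3.3) with TMM scaling, quasi-likelihood F tests, 2-sided, and Benjamini-Hochberg adjustment over all genes tested, at 0.05. Genes entered with at least 0.5 CPM in more than 0.5 of the 29 mice. Strains were compared in 15 inbreds, cross totals in 14 F1s with sex as covariate, and sexes in 29 mice with strain or cross as covariate. Allelic contrasts used a term for each mouse and its total over both alleles as library size, in genes with at least 90% own-allele counts. Tables and figures used Python 3.11.15, pandas 2.3.3, numpy 2.4.6 and matplotlib 3.10.9.

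The genes named are, per dominant allele, the 6 with the largest strain difference without overlap, the 10 with the highest F1 total, those against the dominant allele or failing the strain test, those passing the other tests (the 5 with the smallest adjusted p where more than 5 passed), the 3 on each side of the threshold, up to 4 members per gene list, and the 3 largest allelic ratios per allele. This rule named 35 members. Members and lists were chosen with earlier results of these data known. Alternatives were DESeq2 1.42.0, other scaling, filters, thresholds, covariates and sets of mice, and leaving out each mouse in turn. The fits were tested on simulated data with 200 changed genes per comparison. The deposited counts carry no interval, so the spread between mice is given.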

Additional observations from a re-analysis of the deposited data

Results flagged for a closer look

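In 14 of 140 groups of mice examined for the 35 genes named by the rule (10%), a mouse lay far from the others of its group. Chance gives about 1 in 20 groups. CC037 female 3 stood apart in 3 groups, with *Orm1* at 1359.8 CPM (others 184 to 391), *Slc3a1* at 279 CPM (60.8 to 134) and *Ighm* at 273 CPM (23.3 to 113). CC019 male 3 stood apart in 2, with *Nlrp12* at 18.5 CPM (2.28 to 5.56) and *Slc3a1* at 2.86 CPM (1.02 to 1.60). CC037 female 1, a library with muscle RNA, did so for *Evc* at 2.83 CPM (1.13 to 1.64) and *Npr2* at 7.46 CPM (3.91 to 5.42).

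The other totals were *Cd300e* in CC037 female 2 at 6.81 CPM (0.290 to 3.42), *Ighm* in CC019 female 2 at 25.7 CPM (2.40 to 5.68), *Lrit2* in CC037 female 5 at 7.71 CPM (4.93 to 6.29), *Ptgr1* in CC019 female 3 at 5.29 CPM (1.55 to 2.88) and *Ttc39aos1* in CC019 male 2 at 2.85 CPM (1.26 to 1.74). Among allelic log2 ratios, *Mast2* was 2.61 in CC019 x CC037 female 2 (others -5.77 to -3.40) and *Serpine2* was 4.19 in CC037 x CC019 male 1 (3.29 to 3.67).

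Tests of the difference itself were passed by effects in females and males or in both crosses. The strain difference in females minus that in males was -2.22 for *Slc15a5*, -1.26 for *Fbxo44*, 1.28 for *Ptgr1*, -1.14 for *Sh3bp2* and -0.66 for *Npr2*. The allelic log2 ratio in females minus that in males was 1.61 for *Evc*, -1.68 for *Dio1*, -0.82 for *Sh3bp2* and 0.38 for *Cyp2c23*. Between the crosses the ratio of *Orm1* differed by 1.27.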

How the results depend on the processing

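The number of members was 47, and 76 when inbreds with 0 counts of a gene were passed over, 25 with a pseudocount of 0.5 CPM and 40 to 59 under the other settings (45 to 49 without each F1 in turn). The strain count was 43, and 41 to 45 under the alternatives (42 to 44 without each inbred in turn). With replicate numbers as a block it was 43; same-numbered mice share only a number, and their correlations across strains were 0.143, 0.007 and -0.093 in males and -0.227, 0.082 and 0.18 in females.

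Smaller counts moved more. The interaction of strain and sex, 5 members, gave 10 in DESeq2, 2 with no filter on low counts and 2 to 8 without each inbred in turn. It was 2 without CC019 male 1, CC019 female 3, CC037 male 1 or CC037 male 3, 3 without CC019 female 1, CC019 female 2 or CC037 male 2, and 8 without CC019 male 2 or CC037 female 5. The cross count of totals, 5 members, gave 2 with no filter, 7 in DESeq2, 6 with the clock gene score, 4 to 5 under the other settings, and 2 to 8 without each F1: 8 without CC019 x CC037 male 4, 4 without CC019 x CC037 female 1, 3 without CC037 x CC019 female 1 and 2 without any other. The cross count of ratios, 1 member, was 0 in edgeR with the libraries holding RNA of other tissues left out (5 members at an unadjusted p under 0.05), an alternative chosen after seeing the data, as was the clock gene score. It was 1 without each F1. The sex count of ratios, 4 members, was 2 to 4, and 2 without CC019 x CC037 males 2, 3 or 4, CC019 x CC037 female 2, CC037 x CC019 males 1 or 2, or CC037 x CC019 females 2, 3, 4 or 5. The sex count of totals, 20 members, was 17 to 21 without each mouse in turn, 15 in inbreds alone, 22 in DESeq2 and 18 to 21 under the other settings. The F1 share of 60.2% was 57.6 to 60.7% without each mouse.

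For genes, 1214 of 1347 values kept their direction and side of the threshold, 112 no longer passed, 10 newly passed and 11 changed sign. The strain difference of *Mast2*, -0.03, was 0.24 with the replicate block, 0.17 in females alone, 0.025 with the clock gene score, 0.18 without libraries holding RNA of other tissues, and -0.17 to 0.094 without each inbred in turn. That of *Orm1*, 0.50, was -0.33 in females alone and 1.80 with the clock gene score. Neither passed the main test with all inbreds, while *Orm1* passed with the clock gene score as covariate. For these values and the counts above the cause was not tested. Each of the alternatives gave a value.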
